A study of Mus musculus with 7 samples.

Results

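Interferon-stimulated genes are the genes that cells switch on when interferon reaches their surface. A list of 51 such genes was read in mouse LSK cells, the bone marrow fraction that lacks mature lineage markers, carries both Sca-1 and c-Kit and is rich in blood stem and progenitor cells. A gene counted as measured when a transcript cluster of the exon array carried its symbol and no other, and 35 of the 51 met this rule, among 14860 genes with such a cluster in all. Of the other genes, 10 were annotated only in clusters shared by several symbols (Ifit3, Oas1a, Oas3, Irgm2, Igtp, Iigp1, Ifitm1, Eif2ak2, Sp100 and Uba7) and 6 had no annotated cluster (Isg15, Ifi44, Xaf1, Usp18, Ifitm2 and Herc6); these 16 were not analysed here. No measured member had more than 1 cluster of its own, and Trex1 was also annotated in a shared cluster, which was not read. Both groups were untreated adult FVB mice, 3 labelled TRAF6 transgenic (numbers 03, 04 and 05) and 4 wild-type littermates (21, 22, 23 and 24), and each numbered sample was read on 1 Affymetrix mouse exon array. The labels do not state that each number is a separate mouse, so p-values measure the spread between these samples only. TRAF6 attaches ubiquitin chains downstream of Toll-like and interleukin-1 family receptors. Neither the promoter that drives the transgene nor the sex of the mice is stated in the labels. All values are the authors' RMA log2 signals, and differences are labelled transgenic minus wild type on that log2 scale.

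Type I interferons bind the receptor Ifnar1 and Ifnar2, whose kinases Jak1 and Tyk2 phosphorylate Stat2. A complex that holds Stat2 and Irf9 then binds the interferon-stimulated response element in target promoters, whereas interferon gamma acts through Ifngr1 and Ifngr2 and promoter elements called gamma-activated sites. The products detect viral nucleic acid, degrade RNA, block translation or trap virus at membranes, and some restrain cell growth. Blood stem cells are known to express part of this programme without infection, and interferon can push them out of quiescence.

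Median signal was lowest on labelled transgenic 05 (5.98) and highest on wild type 24 (6.21). Traf6 was not higher in the labelled group, at 8.06, 8.14 and 7.52 on arrays 03, 04 and 05 and 7.95 to 8.33 in wild type, a difference of -0.24 (SE 0.18, limma adjusted p = 0.676; exact permutation p = 0.286, two-sided, smallest possible 0.0286). Whether the array can detect the transgene was not tested, so the groups are named by their labels. The Y-linked genes Eif2s3y and Kdm5d were low on all 3 labelled transgenic arrays (2.91 to 3.05 and 3.87 to 4.35) and high on all 4 wild-type arrays (8.05 to 8.64 and 6.41 to 6.95). For every gene below, the labelled genotype and this Y-linked signal therefore cannot be told apart. All 10 measured stem and progenitor markers, Kit and Cd34 among them, had a mean signal above the 40th percentile of all clusters. So did 5 of 8 B cell markers, 4 of 11 T and NK cell markers, 7 of 13 monocyte and macrophage markers and 4 of 11 neutrophil markers. Of the dendritic cell markers, 4 of 7 plasmacytoid and 2 of 6 conventional ones did. The same held for all 7 measured megakaryocyte markers and 6 of 7 erythroid markers. Nkg7 (97.3% of clusters lower), Pf4 (99.4%) and Mpo (99.6%) ranked near Kit (98.1%). Signals of different probes are not comparable as levels, so these ranks do not measure how pure the LSK fraction was. The Sca-1 gene Ly6a, itself known to respond to interferon, had no single-symbol cluster and is not analysed here.

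Promoter sequences of the members were searched for the core letters of the elements described above. RefSeq promoter windows (GRCm38.p6) were found for 38 of the 51 genes, and the 250 bases before each start were searched on both strands, overlapping matches counted separately. The core of the response element, GAAANNGAAA, lay in the windows of 14 of 38 members (36.8%), against 3.46% of all 27025 genes with a window. The core of the gamma-activated site, TTCNNNGAA, lay in those of 7 members (18.4%), against 8.13% of all genes. The 7 measured members with a response element core are shown with that core in capitals (or its reverse complement), because their differences between the groups span both signs and include genes near 0.
Irgm1 (chr11:48871421-48871475, minus strand): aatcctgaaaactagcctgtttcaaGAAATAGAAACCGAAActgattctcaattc
Ifit1 (chr19:34640760-34640838, plus strand): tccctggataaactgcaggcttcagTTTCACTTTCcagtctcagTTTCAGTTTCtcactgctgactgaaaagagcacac
Bst2 (chr8:71537562-71537627, minus strand): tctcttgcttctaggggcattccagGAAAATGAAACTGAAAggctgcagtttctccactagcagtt
Gbp2 (chr3:142620579-142620638, plus strand): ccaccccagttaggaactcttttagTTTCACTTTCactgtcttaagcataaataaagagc
Gbp3 (chr3:142559974-142560039, plus strand): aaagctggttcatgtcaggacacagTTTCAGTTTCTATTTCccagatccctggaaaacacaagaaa
Lgals9 (chr11:78984945-78985004, minus strand): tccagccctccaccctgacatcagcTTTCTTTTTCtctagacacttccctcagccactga
Rsad2 (chr12:26456538-26456597, minus strand): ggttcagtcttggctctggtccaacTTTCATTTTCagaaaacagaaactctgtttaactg
Irgm1, Bst2 and Gbp3 each hold 2 overlapping copies, Ifit1 holds 2 separate copies, and Gbp2, Lgals9 and Rsad2 hold 1 each. Among measured genes with a window, 3 of the 7 with the core had a difference above 0 (median difference -0.03), as did 13 of the 17 without it (median difference 0.12). Measured members without a window, Rtp4 and Oas2 among them, were not searched and are not in this comparison. A match describes letters only, and the windows of Adar, Ifit2, Samd9l and Lgals3bp, described below, held no response element core.

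Most measured members were somewhat higher in the labelled transgenic group, and none passed the test across all clusters. A difference above 0 was found for 26 of 35 (74.3%), against 49.7% of all 23332 clusters, and the median difference was 0.13 against -0.0018 over all clusters. By limma with Benjamini-Hochberg adjustment 0 members reached an adjusted p under 0.05, a level that 0.0214% of all clusters reached, and the smallest adjusted p among members was 0.332. At an unadjusted p under 0.05, 6 members were higher (17.1%, against 5.22% of all clusters) and 1 was lower (2.86%, against 5.05%). Unmoderated least squares gave 5 higher, 1 lower and 0 past the adjusted threshold. The groups did not overlap for 4 higher members (11.4%, against 5.17% of all clusters) and for 1 lower member (2.86%, against 5.18%). These shares describe the list and were not tested, because the list was drawn up with results of these data known. In a bulk sample, a change in the cells that make up the LSK gate and a change in RNA per cell cannot be told apart.

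The counts rested in part on single arrays. Without labelled transgenic 05 there were 11 higher members at unadjusted p under 0.05 (11.7% of all clusters were higher by the same rule), and without labelled transgenic 04 there were 2 (2.99% of all clusters). Without wild type 23 the lower members numbered 3 (3.73% of all clusters). The median difference was 0.0691 without labelled transgenic 03. When each array was centred on its own median, 28 of 35 members lay above 0, but so did 60.5% of all clusters.

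**Figure D1:**
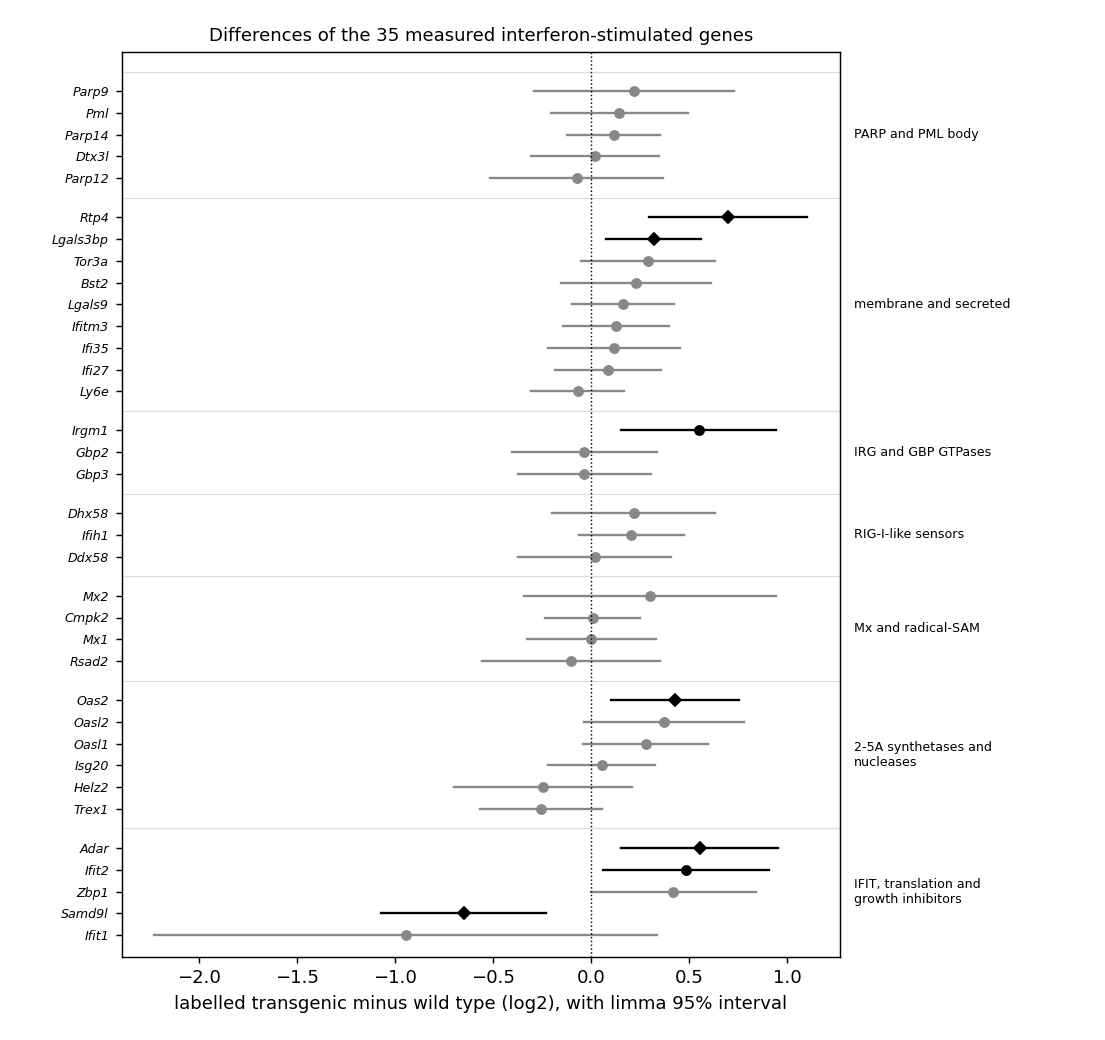
Difference between labelled transgenic and wild type (log2, horizontal axis) for each of the 35 measured interferon-stimulated genes, grouped by role, with limma 95% intervals. Black marks genes with an unadjusted p under 0.05 and diamonds mark genes whose groups do not overlap; 6 black points lie above 0 and 1, Samd9l, lies below.

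The inhibitors of translation and growth held members at both ends of the list, with 3 of 5 measured genes above 0. Adar, which edits adenosine to inosine in double-stranded RNA, stood at 8.02, 7.95 and 7.34 on labelled transgenic 03, 04 and 05, and at 7.22, 7.17, 7.21 and 7.25 on wild type 21 to 24. Arrays 03 and 04 were far above every wild-type array, and array 05 was just above the highest of them. The difference was 0.55 (SE 0.17, adjusted p = 0.3855), a 1.47-fold level, with a spread of 0.38 (SD, n = 3) in the labelled group against 0.031 (SD, n = 4) in wild type. Ifit2, which binds RNA and slows translation, stood at 6.55, 6.86 and 6.23 against 6.26, 5.85, 5.91 and 6.21, so array 05 fell within the wild-type range. Its difference was 0.49 (SE 0.18, adjusted p = 0.437). Zbp1, a sensor of Z-form nucleic acid that can start necroptosis, stood at 5.72, 6.32 and 6.16 against 5.34, 5.68, 5.73 and 5.83, with array 03 inside the wild-type range. The difference of 0.42 (SE 0.18) had an unadjusted p of 0.0505.

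Samd9l went the other way. This gene restrains the growth of blood progenitors and is mutated in human bone marrow failure. It stood at 7.40, 7.06 and 6.65 on labelled transgenic 03, 04 and 05, and at 7.59, 7.64, 7.64 and 7.85 in wild type, so each labelled array was below each wild-type array. The difference was -0.65 (SE 0.18, adjusted p = 0.362), which is 1.57-fold lower. Ifit1, which recognises viral RNA by its cap, had the most negative difference and the widest spread of all members. It stood at 3.84, 3.64 and 2.71 against 4.43, 4.20, 3.14 and 5.60, a difference of -0.94 (SE 0.55, adjusted p = 0.594) with a 95% interval from -2.23 to 0.34. The groups overlapped, and only 15.6% of clusters had a lower mean signal. Ifit1 and Ifit2 are neighbouring paralogs, and their differences had opposite signs, though neither passed the test.

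**Figure D2:**
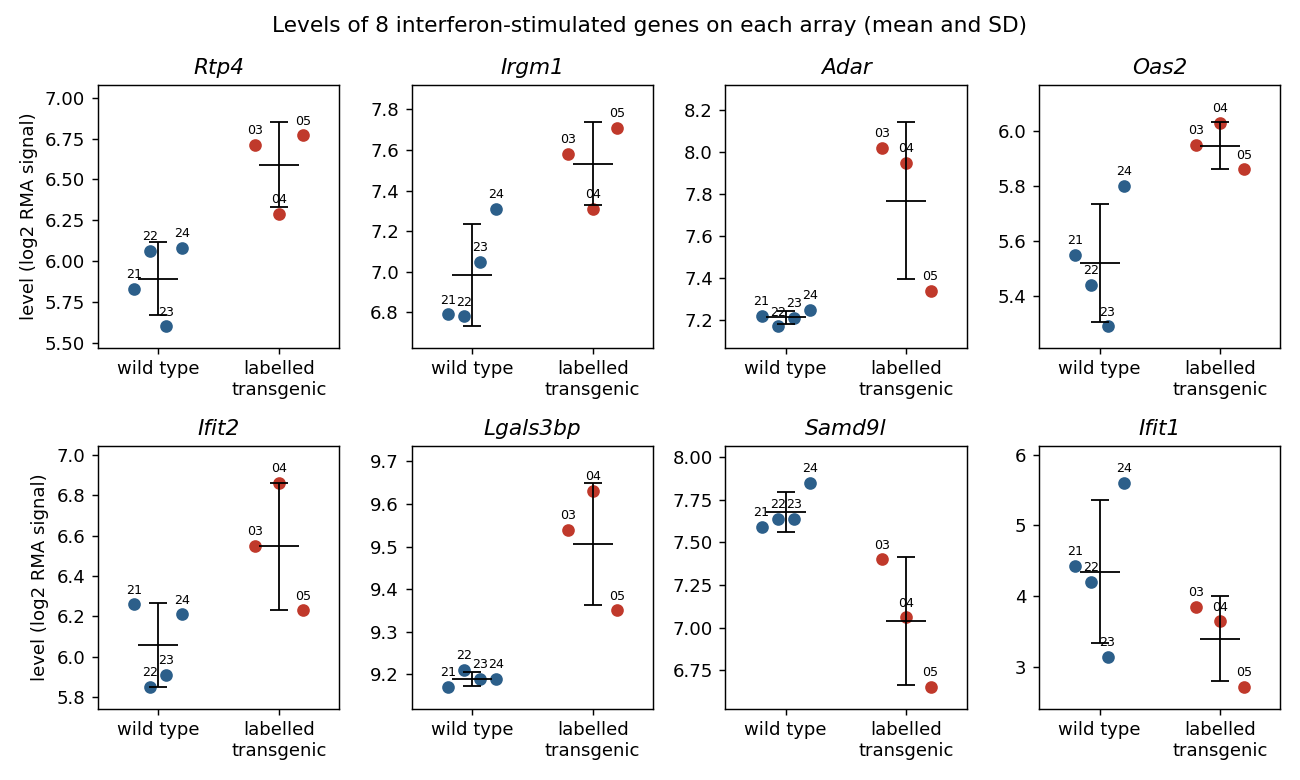
Level (log2 RMA signal, vertical axis) of 8 interferon-stimulated genes on each array, labelled by sample number, for 4 wild-type and 3 labelled transgenic arrays; the long bar is the mean and the whiskers the SD. Rtp4, Adar, Oas2 and Lgals3bp are higher on every labelled transgenic array than on any wild-type array, Samd9l is lower on each, and Irgm1, Ifit2 and Ifit1 overlap.

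Of the oligoadenylate synthetases and related enzymes, 4 of 6 measured members lay above 0. Oas2 makes the oligoadenylates that activate RNase L. It stood at 5.95, 6.03 and 5.86 on labelled transgenic 03, 04 and 05, against 5.55, 5.44, 5.29 and 5.80 in wild type. Each labelled array was above wild type 24, the highest of its group, and the difference was 0.43 (SE 0.14, adjusted p = 0.404), or 1.34-fold. Oasl2 stood at 7.44, 7.18 and 6.82 against 6.76, 6.76, 6.58 and 7.01. Array 05 lay below wild type 24, and the difference was 0.37 (SE 0.17, adjusted p = 0.521). Oasl1, known in mice to limit translation of Irf7, ranged from 5.89 to 6.23 against 5.58 to 5.97, a difference of 0.28 (SE 0.14). The exonuclease gene Isg20 differed by 0.06 and the helicase gene Helz2 by -0.24, both with overlapping groups. Trex1, the exonuclease that clears cytosolic DNA, ranged from 6.28 to 6.44 against 6.36 to 6.79, a difference of -0.26 (SE 0.13, adjusted p = 0.559).

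The classical antiviral effectors Mx1, Mx2, Rsad2 and Cmpk2 all overlapped between the groups. Mx1, a dynamin-like GTPase that is defective in most laboratory strains, stood at 3.04, 3.05 and 2.98 against 2.77, 3.15, 2.89 and 3.26, with only 6.63% of clusters lower. Its difference was 0.0014 (SE 0.14, adjusted p = 0.999), with a 95% interval from -0.33 to 0.33. Mx2 stood at 5.50, 5.41 and 4.54 against 4.81, 5.02, 4.42 and 5.16. Arrays 03 and 04 were above all wild-type arrays and array 05 was near the lowest of them, and the difference was 0.30 (SE 0.27). Rsad2 encodes viperin, which makes a chain-terminating nucleotide, and its neighbour Cmpk2 supplies nucleotide for it. Rsad2 stood at 6.01, 6.11 and 5.75 against 6.24, 5.60, 6.32 and 6.07, a difference of -0.10 (SE 0.19, adjusted p = 0.894) with a 95% interval from -0.56 to 0.35. Cmpk2 ranged from 5.54 to 5.73 against 5.58 to 5.74 (difference 0.01, 95% interval from -0.23 to 0.25). Mx1, Mx2 and Ifit1 were the 3 members whose mean signal fell under the 40th percentile of all clusters, and the other 32 passed that filter.

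All 3 RIG-I-like receptors, which sense viral RNA in the cytosol, overlapped between the groups. Ifih1 (MDA5) stood at 6.87, 6.60 and 6.74 against 6.65, 6.53, 6.56 and 6.39, a difference of 0.20 (SE 0.11, adjusted p = 0.580). Dhx58 (LGP2) differed by 0.22 (SE 0.18), with array 03 at 6.73 above the other 6 arrays, which lay between 6.02 and 6.27. Ddx58 (RIG-I) stood at 7.45, 7.13 and 6.88 against 7.10, 6.99, 7.05 and 7.40, a difference of 0.02 (SE 0.17, adjusted p = 0.983). Its labelled arrays held both the highest and the lowest of the 7 values.

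Of the interferon-inducible GTPases 3 of 6 were measured, and 1 lay above 0. Irgm1, an immunity-related GTPase that in mice limits the proliferation of blood stem cells under interferon, stood at 7.58, 7.31 and 7.71 on labelled transgenic 03, 04 and 05. It stood at 6.79, 6.78, 7.05 and 7.31 on wild type 21 to 24, so array 04 and wild type 24 met. The difference was 0.55 (SE 0.17, adjusted p = 0.384), or 1.46-fold. The guanylate-binding proteins Gbp2 and Gbp3, which coat vacuoles that hold pathogens, differed by -0.03 each. Gbp2 stood at 7.58, 7.40 and 7.18 against 7.27, 7.27, 7.41 and 7.74 (SE 0.16, adjusted p = 0.9655, 95% interval from -0.40 to 0.34), and Gbp3 ranged from 8.0 to 8.08 against 7.77 to 8.34 (95% interval from -0.37 to 0.31). Both signs turned when arrays were centred, to 0.0237 and 0.0231. All 3 genes have the response element core shown among the promoters.

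In the list group named broadly for membrane and secreted proteins, 8 of 9 measured members lay above 0. Rtp4, a receptor transport protein induced by interferon, had the largest positive difference of the list. It stood at 6.71, 6.29 and 6.77 on labelled transgenic 03, 04 and 05, and at 5.83, 6.06, 5.60 and 6.08 in wild type, with no overlap. The means were 6.59 ± 0.26 (SD, n = 3) and 5.89 ± 0.23 (SD, n = 4), a difference of 0.70 (SE 0.17, adjusted p = 0.332), or 1.62-fold, with a 95% interval from 0.30 to 1.10. Lgals3bp, a secreted glycoprotein that binds galectins, stood at 9.54, 9.63 and 9.35 against 9.17, 9.21, 9.19 and 9.19. The wild-type arrays nearly coincided (SD 0.017), and array 05 was the nearest to them. The difference was 0.32 (SE 0.10, adjusted p = 0.4002), or 1.25-fold.

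The remaining members of that list group had smaller differences, all with overlapping arrays between labelled transgenic and wild type. Bst2 (tetherin), which holds budding virus on the cell, stood at 8.0, 8.07 and 7.57 against 7.55, 7.91, 7.50 and 7.64. Arrays 03 and 04 lay above wild type and array 05 within it, and the difference was 0.23 (SE 0.16, adjusted p = 0.667). Ifitm3, which blocks fusion of virus in endosomes, stood at 11.31, 11.25 and 11.04 against 10.93, 11.10, 11.08 and 11.19, a difference of 0.13 (SE 0.12, adjusted p = 0.745). Its paralogs Ifitm1 and Ifitm2 had no cluster of their own. Tor3a, of the torsin ATPase family, differed by 0.29, Lgals9 (galectin 9) by 0.16, Ifi35 by 0.12 and Ifi27 by 0.09. Ly6e ranged from 11.82 to 11.95 against 11.89 to 12.08, a difference of -0.07 (95% interval from -0.31 to 0.17).

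The ADP-ribosyltransferase and nuclear body genes also overlapped between the groups. Parp9 and Dtx3l are neighbours whose proteins form a complex. Parp9 stood at 7.97, 7.49 and 7.02 against 7.16, 7.13, 7.37 and 7.44 (difference 0.22, SE 0.22), and Dtx3l at 8.27, 8.21 and 7.85 against 8.04, 7.99, 8.04 and 8.27 (difference 0.02, SE 0.14). In both genes array 03 was the highest of its group and array 05 the lowest of all 7. The difference was 0.12 for Parp14 and -0.07 for Parp12. Pml, the scaffold of PML bodies, ranged from 7.79 to 8.31 against 7.82 to 8.10, a difference of 0.15 (SE 0.15).

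**Figure D3:**
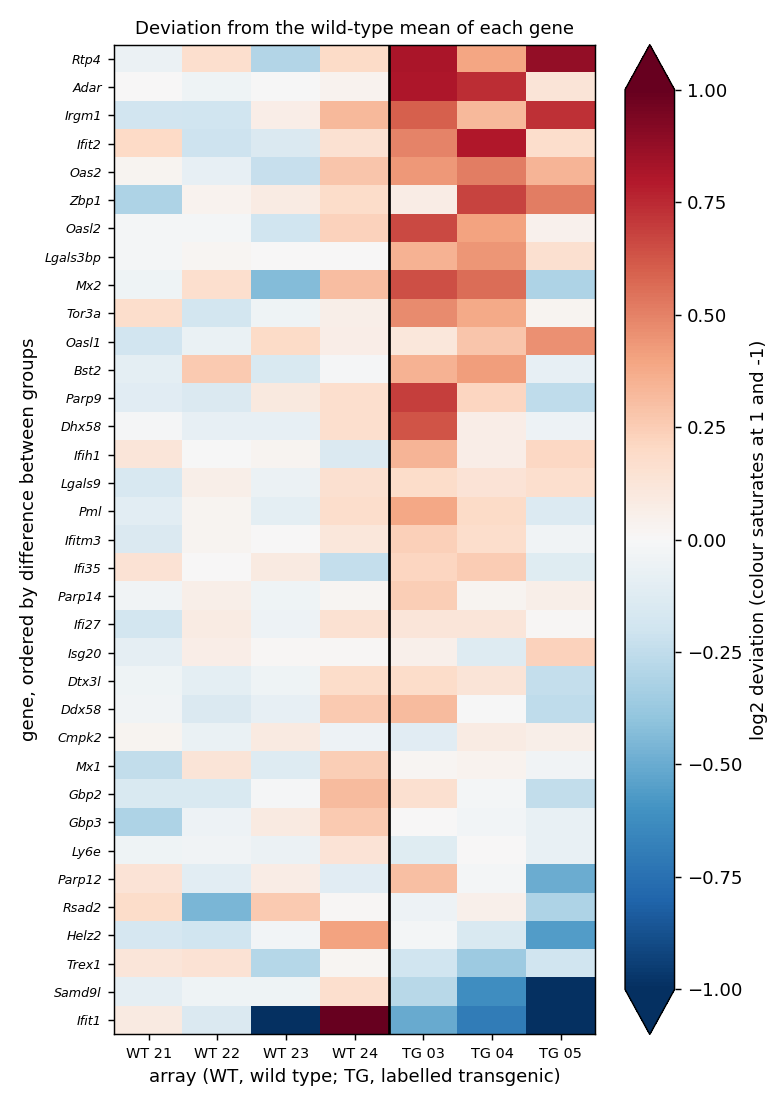
Deviation of each array (columns) from the wild-type mean of each of the 35 genes (rows, ordered by the difference between groups), in log2 units. Red is above and blue below the wild-type mean; array 03 is red in most rows, while array 05 is red for Rtp4 and Irgm1 and blue for Samd9l, Helz2, Parp12 and Parp9.

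The order of the arrays within each group was described by counting members. Within the labelled transgenic group, array 03 was the highest of its group for 20 of 35 members (57.1%), compared with 42.4% of all clusters. Array 05 was the lowest for 24 (68.6%), compared with 55.7% of all clusters. In the wild-type group, array 24 was the highest of its group for 22 members (62.9%), compared with 36.1% of all clusters. The median deviation of the members from the wild-type mean was 0.24 on array 03, 0.12 on 04 and -0.04 on 05, and it was 0.16 on wild type 24 against -0.04 to -0.05 on the other wild-type arrays. Wild type 24 thus lay above labelled transgenic 04 and 05 by this measure. Over all clusters the same deviation was 0.05, 0.02 and -0.09 on arrays 03, 04 and 05 and 0.05 on wild type 24, so the arrays with higher members were also those with higher signal in general. The part of this general shift in the members' differences was not tested beyond the centred values given above. Rtp4, Irgm1, Oasl1, Isg20 and Trex1 did not follow the order, being highest of the labelled group on array 05. The spread of members between wild-type arrays had a median SD of 0.166, close to the 0.178 of all clusters, and ran from 0.0166 for Lgals3bp to 1.01 for Ifit1.

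**Figure D4:**
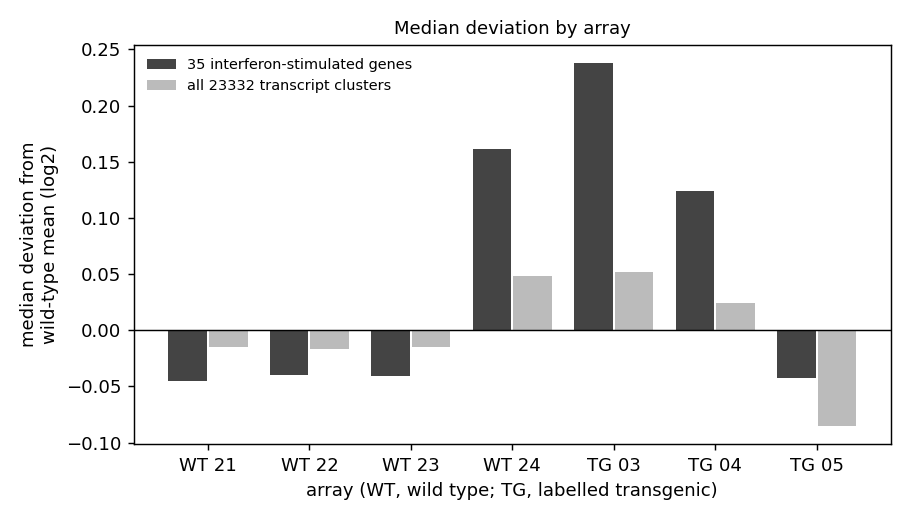
Median deviation from the wild-type mean (log2, vertical axis) on each array, for the 35 interferon-stimulated genes (dark bars) and for all 23332 transcript clusters (light bars). The dark bars are highest on labelled transgenic 03 (0.24) and wild type 24 (0.16), and the light bars are lowest on labelled transgenic 05 (-0.09).

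The genes that make and relay the interferon signal did not lean upward. Of 30 listed genes 26 had a cluster of their own, and 11 of these lay above 0, against 49.7% of all clusters. Their median difference was -0.09. By limma none passed the adjusted threshold. At unadjusted p under 0.05, 3 were higher and 2 lower, against 5.22% and 5.05% of all clusters. Without labelled transgenic 05 there were 5 higher and 1 lower (11.7% and 4.07% of all clusters), and without labelled transgenic 04 there was 1 of each (2.99% and 4.32%). Without wild type 21 there were 5 lower (6.11% of all clusters).

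Of the ligand genes, Ifna1 stood at 6.46, 6.70 and 6.12 against 5.85, 6.10, 5.89 and 5.81, a difference of 0.51 (SE 0.16, adjusted p = 0.384) with no overlap. Ifna4 stood at 3.58, 3.30 and 2.78 against 2.66, 2.75, 2.55 and 2.61, a difference of 0.58 (SE 0.19, adjusted p = 0.4002), but only 5.73% of clusters had a lower mean signal. Interferon alpha genes are near-identical copies, so probes may not separate them. Ifnb1 differed by -0.02 and Ifng, the type II interferon gene, by -0.25, each with overlapping groups.

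All 4 receptor chains had negative differences and overlapping groups. Ifnar1 stood at 7.86, 7.72 and 7.26 against 7.86, 7.80, 8.12 and 8.19, a difference of -0.38 (SE 0.18, adjusted p = 0.521). Ifnar2 differed by -0.23 (SE 0.15), Ifngr1 by -0.24 (SE 0.20) and Ifngr2 by -0.16 (SE 0.16). The kinase genes divided. Tyk2 stood at 7.83, 7.58 and 7.41 against 7.35, 7.11, 7.26 and 7.36, above every wild-type array, with a difference of 0.34 (SE 0.13, adjusted p = 0.4545), while Jak1 differed by -0.27 (SE 0.14) and Jak2 by -0.30 (SE 0.18).

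Among the transcription factors, Irf7, which amplifies interferon production, stood at 6.89, 6.66 and 7.05 against 6.23, 6.53, 6.53 and 6.89, a difference of 0.32 (SE 0.17, adjusted p = 0.569). Stat2 differed by 0.22 (SE 0.12), Irf9 by 0.18 (SE 0.15) and Irf1 by 0.13 (SE 0.17). Irf5 stood at 7.18, 7.35 and 7.12 against 7.75, 7.50, 7.47 and 7.67, with no overlap and a difference of -0.38 (SE 0.12, adjusted p = 0.384). The feedback inhibitor Socs3 differed by -0.51 (SE 0.16, adjusted p = 0.4002), and array 03 at 6.27 lay within its wild-type range of 6.20 to 6.58. Socs1 ranged from 6.60 to 6.79 against 6.80 to 7.10, a difference of -0.25 (SE 0.12, adjusted p = 0.519).

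**Figure D5:**
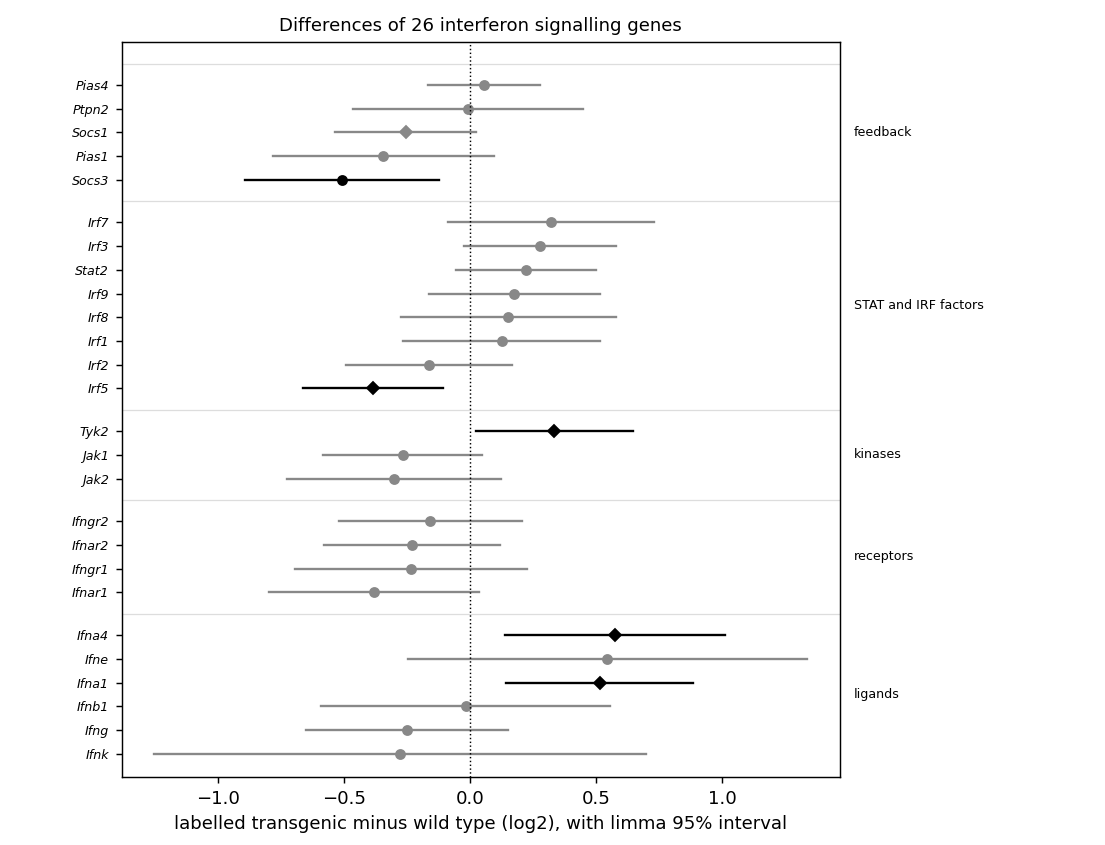
Difference between labelled transgenic and wild type (log2, horizontal axis) for 26 genes of interferon production and signalling, grouped by role, with limma 95% intervals; black marks an unadjusted p under 0.05 and diamonds mark groups that do not overlap. Ifna1, Ifna4 and Tyk2 lie to the right with black marks, Irf5 and Socs3 to the left, and all 4 receptor chains lie left of 0 with intervals that cross it.

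Nucleic acid sensing genes upstream of interferon lay above 0 in 7 of 14 measured cases, against 49.7% of all clusters. None was higher at unadjusted p under 0.05 and 2 were lower, against 5.22% and 5.05% of all clusters. By limma 0 passed the adjusted threshold. Without labelled transgenic 05 the higher genes numbered 5, when 11.7% of all clusters were higher by that rule. Tlr7, a receptor for single-stranded RNA, stood at 3.85, 3.92 and 4.03 against 4.41, 4.89, 4.31 and 5.22, a difference of -0.78 (SE 0.23, adjusted p = 0.375) at a low level. Zc3hav1, an antiviral protein that binds CpG-rich RNA, differed by -0.32 (SE 0.10, adjusted p = 0.3865) with no overlap. Cgas, the cytosolic DNA sensor, differed by 0.38 (SE 0.17), Mavs, the adaptor of the RIG-I-like receptors, by 0.36 (SE 0.17) and Myd88, the adaptor upstream of TRAF6, by 0.35 (SE 0.16), each with overlapping groups.

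Interferon-inducible genes outside the 51 also lay mostly above 0, with genes called in both directions. Of 86 listed genes 55 had a cluster of their own, and 41 of these lay above 0, against 49.7% of all clusters. Their median difference was 0.09. At unadjusted p under 0.05, 8 were higher and 4 lower, against 5.22% and 5.05% of all clusters. Among the 35 members, 1 was lower by that rule. By limma 0 of the 55 passed the adjusted threshold. The higher count was 3 without labelled transgenic 03 (3.46% of all clusters), 3 without 04 (2.99%) and 14 without 05 (11.7%). It was 5 without wild type 22 (3.99% of all clusters) and 3 without wild type 23 (3.21%), so the share over all clusters moved in the same direction each time. The smallest p-values on the higher side belonged to Psmb10, an immunoproteasome subunit, at 0.38 (SE 0.089, adjusted p = 0.315), and to Ms4a6c at 0.62 (SE 0.16, adjusted p = 0.342). On the lower side stood Lgals3 (galectin 3) at -0.65 (SE 0.15, adjusted p = 0.298), Ccl5, a chemokine, at -0.84 (SE 0.24, adjusted p = 0.370) and Shisa5 at -0.37 (SE 0.11, adjusted p = 0.375).

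Summed marker signals of other cell types overlapped between the groups for some types and not for others. The summed signal of 7 plasmacytoid dendritic cell markers, a cell rich in interferon-stimulated transcripts, was 10.42 to 10.75 in the labelled group and 10.96 to 11.33 in wild type on the log2 scale, with 6 of 7 genes below 0. The sum was carried mainly by Dntt, an early lymphoid gene (9.43 to 10.11 against 10.25 to 10.70), with Tcf4 next. Dntt, Cox6a2 (-0.53), Lag3 (-0.42) and Ccr9 (-0.41) were lower with no overlap, as were 5.18% of all clusters. Siglech, a more specific marker, differed by -0.05, Tcf4 by -0.27 and Pacsin1 by 0.035, each with overlapping groups. The mean signals of Siglech, Pacsin1 and Ccr9 were under the 40th percentile of all clusters. Conventional dendritic markers summed to 9.34 to 9.62 against 10.26 to 10.52, with 3 of 6 below 0. This sum was carried mainly by Cd74 (difference -1.08) and H2-Ab1 (-0.80). Cd74 and H2-Ab1 were the only 2 of the 6 with a mean signal above the 40th percentile of all clusters. Of the others, Clec9a differed by 0.29 with no overlap, and Xcr1 by 0.02, Cd209a by 0.02 and Zbtb46 by -0.09 with overlapping groups. At such low signal a fall in these genes may not show. Monocyte and macrophage markers summed to 9.66 to 9.77 against 9.46 to 9.56, with 10 of 13 above 0, led by F13a1. T and NK cell markers (9 of 11 below 0) summed to 10.52 to 10.70 against 10.77 to 11.02. Nkg7 (difference -0.15, overlapping groups) weighed most in that sum, with Cd28 (-1.08) next. Cd28, Cd4 and Cd5 were lower with no overlap, as were 5.18% of all clusters, and the other T and NK cell markers overlapped. Only 4 of the 11 had a mean signal above the 40th percentile of all clusters. Megakaryocyte markers (4 of 7 above 0) summed to 11.71 to 12.18 against 12.18 to 12.41. B cell markers summed to 9.09 to 9.28 against 9.22 to 9.57, with 5 of 8 below 0, and the B cell and megakaryocyte sums overlapped. Neutrophil markers summed to 12.22 to 12.42 against 12.05 to 12.18, with 7 of 11 above 0. This sum was carried mainly by Mpo (difference 0.19), with Prtn3 (0.66) next. Prtn3, Cxcr2 (0.67) and Lcn2 (0.15) were higher with no overlap, as were 5.17% of all clusters. The markers below 0 were S100a8 (-0.37), Ngp (-0.26), Ltf (-0.03) and Camp (-0.01), all with overlapping groups. Cxcr2, Lcn2 and the markers below 0 had mean signals under the 40th percentile of all clusters. Erythroid markers (7 of 7 above 0) and stromal markers (3 of 8 above 0) had sums that overlapped between the groups, as did stem and progenitor markers (3 of 10 above 0). All 18 measured cell division genes of 21 listed lay above 0, and their sums were 13.14 to 13.41 against 12.79 to 13.07. Their median difference was 0.37. By limma at unadjusted p under 0.05, 11 were higher and 0 lower, against 5.22% and 5.05% of all clusters, and 0 passed the adjusted threshold. The groups did not overlap for 9 of them, all higher, against 5.17% of all clusters. The part of any of these in the interferon-stimulated values was not tested.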

How the data were processed

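RNA of sorted LSK cells was amplified and labelled with NuGEN kits, per the labels' protocols, and 7 exon arrays were hybridised. RMA was used by the authors to make the deposited log2 values, and mm9 was the genome build, according to per-sample notes of the submitters. No source used here gives the RMA settings. The log2 scale was inferred from the values, which ran from 1.28 to 14.03. The table held 23332 transcript clusters, of which 14996 had 1 gene symbol, 1019 several and 7317 none. The members' symbols matched RefSeq by Entrez identifier for 35 of 35.

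Differences were fitted over all clusters and 7 arrays with limma 3.58.1 (lmFit, eBayes) in R 4.3.3, genotype as the only term, two-sided, with Benjamini-Hochberg adjustment over all clusters and a threshold of 0.05. The fit was tested on simulated data. The number of arrays limits the precision, and p-values measure only the spread between samples. The members, pathway lists, markers, tests and alternatives were chosen with earlier results of these data known. Every measured member is named. Full values were to be given for members at unadjusted p under 0.05 or with groups that do not overlap, and for 20 fixed members, 8 of which had no cluster of their own. From other lists the smallest p-values and fixed signalling genes were named. Marker sums are the log2 of summed linear signal, so genes with strong signal weigh most in them. The alternatives were quantile normalization, centring on array medians, a low-signal filter at the 40th percentile, weights per array, a robust prior with an intensity trend, unmoderated least squares, the mean of a gene's clusters, 1 cluster per gene and leaving out each array. Figures used matplotlib 3.10.9.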

Additional observations from a re-analysis of the deposited data

Results flagged for a closer look

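Ly6e in wild type 24 was 12.08, while the other 3 wild-type arrays lay between 11.89 and 11.91. Its gap to the nearest array was 0.898 of the group's range, above Dixon's 95% critical value for 4 samples. This was 1 of 36 wild-type groups examined (35 members and Traf6), none of the others passed that value, and chance alone marks about 1 group in 20.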

How the results depend on the processing

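No member passed the adjusted threshold under any of the 15 alternatives, and 25 of 35 kept the sign of their difference under every alternative that gave them a value. The low-signal filter gave none for Ifit1, Mx1 and Mx2, which leaves 14 for each. The higher members at unadjusted p under 0.05 numbered 11 with array weights, where 13.1% of all clusters were higher by the same rule, and 2 to 11 on leaving out 1 array. The lower members numbered 1 to 3 on leaving out 1 array, members above 0 22 to 27, and the median difference 0.0691 to 0.1925. Traf6 lay between -0.3623 and -0.04985 on leaving out 1 array. Signs turned for Gbp2 (0.0237) and Gbp3 (0.0231) after centring, and for Gbp2 (0.0291), Parp12 (0.0371) and Isg20 (-0.0518) with array weights. On leaving out 1 array the differences ranged from -0.0802 to 0.0832 for Mx1, -0.131 to 0.154 for Ddx58, -0.0174 to 0.456 for Parp9, -0.0603 to 0.154 for Dtx3l, -0.0257 to 0.0693 for Cmpk2, -0.0352 to 0.145 for Isg20, -0.255 to 0.00213 for Rsad2, -0.129 to 0.0716 for Gbp2, -0.136 to 0.0532 for Gbp3 and -0.258 to 0.138 for Parp12. The cause was not tested. Alternatives for the pathway lists were added after seeing the data. Signalling genes higher at unadjusted p under 0.05 numbered 5 after centring and 1 to 5 on leaving out 1 array, and lower ones 1 to 5. Sensing genes higher numbered 3 after centring and 0 to 5 on leaving out 1 array, and other interferon-inducible genes 3 to 14. Ifit1, Mx1 and Mx2 had mean signals under the 40th percentile of all clusters, and signal over background was not measured here. No paired analysis was possible because the groups share no replicate number.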
